A study of Arabidopsis thaliana with 10 samples.

Results

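The subject here is the set of Arabidopsis thaliana transcripts raised in rosettes of abi4-102 that differed little or not at all from wild type in vtc1. A probe set, the group of array probes that reads 1 transcript, was taken as a member under 3 conditions. Its mean log2(intensity + 1) in abi4-102 lay at least 0.7 above wild type, its mean in vtc1 lay between -0.3 and 0.3 of wild type, and every abi4-102 array lay above every other array. Of 22746 probe sets that read plant transcripts, 103 met these conditions. The probe sets of 4 genes (AT5G26270, AT5G03090, AT4G03530 and AT5G26020) were left out, which gave 99 members. A single gene is annotated to 60 of these members, several genes to 4 and no gene to 35 in the tables used here. The members were thus chosen by the measured levels of all 3 genotypes, so the levels of the members are a description and carry no test.

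The study measured RNA of whole rosettes on arrays of short DNA probes, with biotin as the only label. The 10 arrays hold 3 of abi4-102, 4 of vtc1 and 3 of wild type Col 0, all from plants aged 42 days at harvest. All genotypes were grown on compost under an 8 h day, 60% humidity, 23 °C in the day and 18 °C at night, with 200 µmol of light per square metre and second. The labels call the samples biological replicates without saying whether each is 1 plant or a pool, so p-values measure only the spread between these samples. In RNA from a whole rosette, fewer cells of a type and less RNA per cell cannot be told apart.

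ABI4 is a transcription factor with an AP2 domain, known from mutants that are insensitive to abscisic acid and to sugar during seedling growth, and it has also been placed in signalling from plastids to the nucleus. The vtc1 mutant is impaired in the enzyme that makes GDP-mannose, a precursor of ascorbate, and holds less ascorbate than wild type. Abscisic acid, jasmonate, ethylene and salicylic acid are hormones of stress and defence, and the first is often antagonistic to the jasmonate and ethylene branch that switches on plant defensins. No probe set is annotated to ABI4 or VTC1 alone, so the mutated genes could not be checked by their own signal.

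The median intensity was 42.6 to 45.6 over the 10 arrays, and the Pearson correlation across probe sets was 0.997 to 0.999 between replicates and 0.985 to 0.990 between genotypes. The highest of the 27 Bacillus control probe sets, used here as the level of control signal, lay at 15.2 to 19.8. Across all probe sets limma called 34.9% different between abi4-102 and wild type, 18.8% higher and 16% lower in abi4-102. Between vtc1 and wild type it called 36.6%, and between abi4-102 and vtc1 39%. The 18 hybridisation spike-in probe sets averaged 8.79 ± 0.04 in abi4-102, 8.59 ± 0.12 in vtc1 and 8.82 ± 0.05 in wild type (log2 intensity, SD, n = 3, 4 and 3). The log2 ratio of the actin probe sets at the 3' and 5' ends, a sign of RNA integrity, was 1.48 ± 0.11 in abi4-102, 1.57 ± 0.07 in vtc1 and 1.83 ± 0.23 in wild type, and its part in the results was not tested. Scaling the arrays to the spike-ins moved the median difference between vtc1 and wild type over all probe sets to 0.21, a shift of 0.24, and 27 of the 60 single-gene members then still met the conditions.

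A rise of 0.7 or more in abi4-102 over wild type was uncommon, and in most such probe sets vtc1 also lay above wild type. Such a rise was found for 626 probe sets, 2.75% of those measured. In 515 of them vtc1 also lay more than 0.3 above wild type, in 8 it lay more than 0.3 below, and in 103 it lay within the window. Over all probe sets 77.6% had vtc1 within the window. The same wild type arrays enter both differences, which may itself make them move together, and this was not tested. All 103 probe sets within the window also had each abi4-102 array above the other 7 arrays. The condition on single arrays thus removed none, and the conditions on the means already favour such a separation. It was found in 11.6% of all probe sets, where the conditions on the means were not applied. The mirrored conditions, with abi4-102 lower by 0.7 or more, were met by 65 probe sets. Every one of the 99 members was called higher in abi4-102 than in wild type against 18.8% of all probe sets, which follows from how they were chosen.

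**Figure D1:**
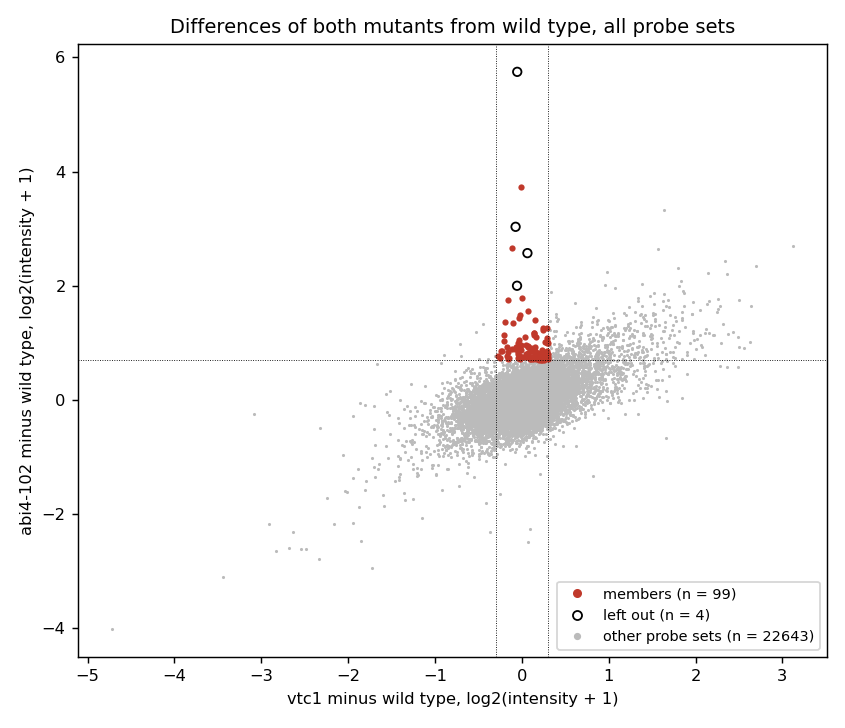
Each point is 1 probe set, with the abi4-102 minus wild type difference against the vtc1 minus wild type difference in mean log2(intensity + 1). The 99 members lie at 0.7 or more on the abi4-102 axis and between -0.3 and 0.3 on the vtc1 axis, and the 4 probe sets left out and the remaining 22643 are drawn apart.

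Most members were modestly raised. The median difference between abi4-102 and wild type was 0.84 on the log2 scale, or 1.79-fold, and 38 members lay under 0.8. By measured means 24 members differed by 2-fold or more, but in 6 of these wild type stayed below the control signal and gives only a bound. For 4 of the 6 the bound was at least 1.03-fold to at least 1.34-fold, so a 2-fold difference stands for 20 members. The other 2 of the 6, the members above a log2 difference of 2, were at least 6.63-fold and at least 4.01-fold higher in abi4-102 and have no annotated gene. With bounds in place of measured folds, the median over the 98 members that have either was 1.76-fold. Within the window set by the conditions, the median difference between vtc1 and wild type was 0.10 over the members, against -0.03 over all probe sets. In vtc1 66 members lay above and 33 below wild type, and 29 of the 66 lay at least 0.2 above. Wild type enters both differences used by the conditions, so the choice of members may itself give this lean, which was not tested. limma called 27 members different between vtc1 and wild type, 22 higher and 5 lower. Over all probe sets it called 36.6%, with 18.1% higher and 18.5% lower in vtc1. The calls of the members again rest on values that the conditions used.

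Separation of abi4-102 from all other arrays was a condition of membership, so only the width of the gap is described. The lowest abi4-102 array exceeded the highest of the other arrays by a median of 0.51 on the log2 scale. EXO had the narrowest gap, 0.03. The median of mean intensity over the members was 110.0 in abi4-102, 66.6 in vtc1 and 57.0 in wild type. In 15 members, 15.2%, no wild type array exceeded the control signal, against 30.9% of all probe sets. For 14 of these 15 at least 1 abi4-102 array was above it. AT1G10585 stayed below the control signal on all arrays, with means of 13.2 in abi4-102, 6.42 in vtc1 and 6.56 in wild type.

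Among the 60 members with 1 gene, the pseudogene AT2G20460 had the largest difference. It read 50.1, 73.8 and 109.5 in abi4-102, 17.9, 20.6, 19.3 and 18.8 in vtc1, and 20.6, 22.9 and 20.8 in wild type. All intensities here are linear. The abi4-102 arrays spread over more than the range seen in either other genotype, and the lowest of them was still above every other array. The difference was 1.74 ± 0.18 (log2, standard error from limma), a 3.35-fold higher level in abi4-102. A further pseudogene, AT2G16000, read 75.8, 68.3 and 56.3 in abi4-102, 22.5, 21.6, 26.8 and 23.7 in vtc1, and 25.7, 27.8 and 22.7 in wild type. It was 2.56-fold higher in abi4-102 than in wild type, with vtc1 and wild type overlapping. With AT3G43640, pseudogenes made up 3 of the 60 single-gene members, 5%, against 6.83% of all probe sets with 1 gene.

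Several of the largest differences fell on genes that carry only a locus code in the gene table used here, so that no role is given for them. AT2G20670 read 237, 204 and 244 in abi4-102, 89.0, 86.1, 82.3 and 68.9 in vtc1, and 82.0, 88.9 and 79.6 in wild type. It was 2.71-fold higher in abi4-102 than in wild type, and the vtc1 and wild type arrays overlapped. AT5G39520 read 375, 367 and 366 in abi4-102, 202, 169.8, 172 and 177 in vtc1, and 153, 167 and 169 in wild type. The abi4-102 replicates of AT5G39520 were close together at 2.26-fold the wild type level, and every vtc1 array lay slightly above all wild type arrays.

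A pair of locus-code genes had vtc1 near the upper edge of the window. AT2G38240 read 103, 99.3 and 117 in abi4-102, 49.5, 55.7, 57.7 and 52.3 in vtc1, and 48.9, 38.1 and 45.2 in wild type. AT5G05600 read 348, 333 and 302 in abi4-102, 163, 168, 165 and 153 in vtc1, and 136, 145 and 128 in wild type. Both were 2.39-fold higher in abi4-102 than in wild type, while vtc1 lay 0.29 and 0.25 above wild type on the log2 scale with no array of vtc1 inside the wild type range. AT1G15010 read 107, 132 and 90.7 in abi4-102, 53.7, 53.9, 49.2 and 49.6 in vtc1, and 53.8, 52.5 and 44.3 in wild type, 2.15-fold higher in abi4-102 than in wild type. AT4G23870 read 44.7, 57.0 and 43.4 in abi4-102, 25.6, 25.0, 22.2 and 26.3 in vtc1, and 23.7, 21.0 and 21.1 in wild type, 2.14-fold higher in abi4-102. For both genes the vtc1 and wild type arrays overlapped and all abi4-102 arrays were apart.

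There were 34 other members that carry only a locus code in the gene table and lie outside the 12 largest. The 30 of them with at least 1 wild type array above the control signal lay between 1.63-fold and 1.99-fold above wild type in abi4-102, with a median of 1.77-fold. Of the 4 below it on every wild type array, AT5G51390, AT5G16980 and AT3G43640 were at least 1.21-fold, 1.24-fold and 1.097-fold higher in abi4-102, and AT1G10585 has no bound. In AT5G51390 and AT3G43640 abi4-102 replicate 3 also lay below the control signal and entered the bound as measured. Over all 34 the lowest abi4-102 array exceeded the highest other array by 0.20 to 0.81 on the log2 scale. All vtc1 arrays lay above all wild type arrays in 10 of them and below in 2, and the arrays overlapped in 22. Each pattern is shown by 1 gene. AT1G14200 read 286, 281 and 268 in abi4-102, 174, 181, 172 and 154 in vtc1, and 142, 146 and 130.1 in wild type, with vtc1 in the middle. AT2G43590 read 68.2, 73.6 and 71.7 in abi4-102, 31.0, 32.3, 34.2 and 33.1 in vtc1, and 36.1, 36.1 and 38.5 in wild type, with vtc1 lowest. AT1G20030 read 891, 794 and 815 in abi4-102, 438, 439.6, 468 and 451 in vtc1, and 429, 412 and 518 in wild type. In AT1G20030 the vtc1 arrays fell within the wild type range. Over the 60 single-gene members vtc1 lay wholly above wild type in 20, below in 5 and overlapped in 35, beside 20.3% above and 21.7% below over all probe sets, where the window of vtc1 was not applied.

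**Figure D2:**
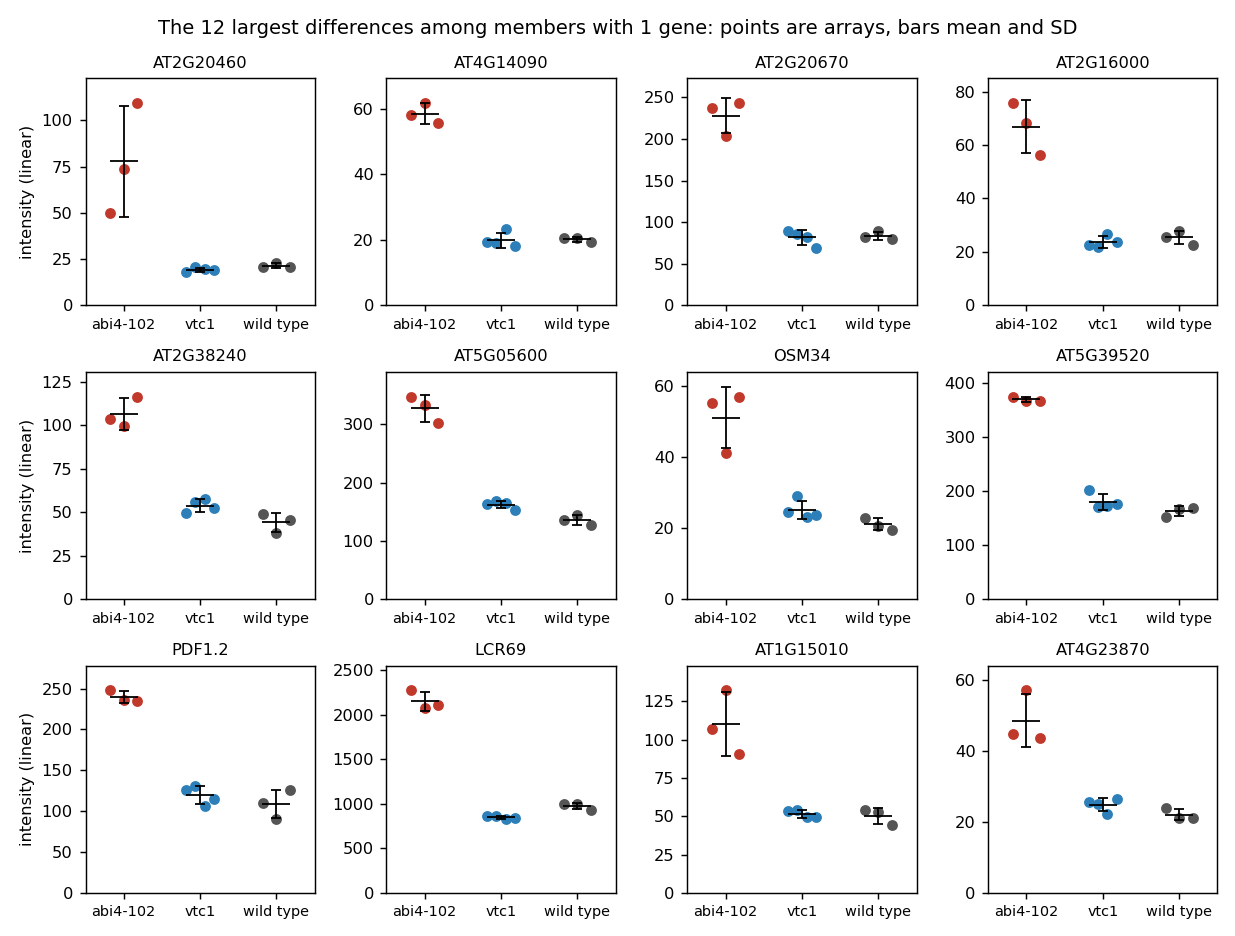
Linear intensity on each array (points, with bars for the mean and SD) for the 12 members with 1 gene and the largest abi4-102 minus wild type difference, with abi4-102 left, vtc1 in the middle and wild type right. In every panel the 3 abi4-102 arrays lie above the 7 others, and on the log2 scale AT4G14090 has the widest gap of the 12 and AT2G20460 the widest spread between replicates.

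Of the 60 single-gene members, 17 carry a gene symbol and 43 only a locus code. The 17, with AT4G14090, were sorted by what they are known to do into defence proteins, flavonoid and anthocyanin enzymes, cell wall proteins, transcription factors and signalling proteins, and others. These classes were formed after the members were known, so their sizes are a description. Apart from AT4G14090, members with only a locus code were not sorted, whether or not a function is known for them. The class sizes thus also depend on which genes have a symbol in the gene table.

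Among the sorted members, small secreted antimicrobial and pathogenesis-related proteins formed the largest class, with 5: OSM34, PDF1.2, LCR69, THI2.2 and PR-1-LIKE. OSM34, an osmotin-like protein of the thaumatin family, read 55.1, 41.3 and 57.1 in abi4-102, 24.5, 29.0, 23.2 and 23.6 in vtc1, and 22.8, 20.6 and 19.5 in wild type. Every vtc1 array of OSM34 lay above the wild type arrays and below the abi4-102 arrays. Its abi4-102 level was 2.35-fold that of wild type and 1.99-fold that of vtc1. Under spike-in scaling vtc1 lay 0.48 above wild type, outside the window.

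PDF1.2 encodes a plant defensin and is a standard reporter of jasmonate and ethylene signalling. It read 248, 236 and 235 in abi4-102, 126, 131, 107 and 115 in vtc1, and 110.4, 90.6 and 126 in wild type. The vtc1 and wild type arrays of PDF1.2 overlapped, and abi4-102 was 2.21-fold above wild type (1.14 ± 0.10 on the log2 scale). With spike-in scaling vtc1 lay 0.38 above wild type. Near-identical copies of this gene exist, and the probes may read more than 1 of them.

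LCR69 belongs to another branch of the plant defensins. Its probe set read 2271, 2074 and 2106 in abi4-102, 865, 863, 832 and 836 in vtc1, and 993, 999.9 and 934 in wild type. Here vtc1 lay below wild type on every array, by 0.20 on the log2 scale, while abi4-102 was 2.2-fold above wild type and 2.53-fold above vtc1. LCR69 had small replicate spread in all genotypes, and it met the conditions under each of the alternative scalings and with the larger pseudocount.

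THI2.2, a thionin, and PR-1-LIKE, related to pathogenesis-related protein PR-1, completed the class. THI2.2 averaged 95.4 ± 9.46 in abi4-102, 50.0 ± 1.86 in vtc1 and 48.6 ± 5.76 in wild type (SD, n = 3, 4 and 3, as for the other means below), a difference of 0.96 between abi4-102 and wild type. PR-1-LIKE averaged 32.0 ± 8.03 in abi4-102, 14.3 ± 1.05 in vtc1 and 17.0 ± 1.73 in wild type. No vtc1 array of PR-1-LIKE exceeded the control signal and wild type lay close to it, so no fall in vtc1 is read for this gene. Its abi4-102 arrays read 40.6, 30.7 and 24.7, a wide spread that still did not reach the other arrays.

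The flavonoid pathway leads from phenylalanine through chalcones to flavonols and anthocyanins, the red and purple pigments of stressed leaves, and its late steps reduce the flavonoid core and attach sugars. AT4G14090, DFR and UF3GT are the members that stand in the list of flavonoid and anthocyanin genes. AT4G14090 read 58.2, 61.9 and 55.6 in abi4-102, 19.3, 18.9, 23.2 and 18.1 in vtc1, and 20.5, 20.7 and 19.2 in wild type. It was 2.82-fold higher in abi4-102 than in wild type (1.49 ± 0.08 on the log2 scale), vtc1 and wild type overlapped, and it met the conditions under all scalings tried.

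DFR, dihydroflavonol reductase, catalyses the step that commits the pathway to anthocyanins. It read 25.9, 19.9 and 15.96 in abi4-102, 11.3, 9.92, 11.6 and 10.2 in vtc1, and 10.3, 12.9 and 10.3 in wild type. No wild type array of DFR exceeded the control signal, so the level in abi4-102 is given as at least 1.17-fold that of wild type. The measured means were 20.6 in abi4-102 and 11.2 in wild type. The abi4-102 array of DFR at 15.96 also lay below its control signal and entered the bound as measured. UF3GT, a glycosyltransferase that extends the sugar on anthocyanins, averaged 56.8 ± 2.67 in abi4-102, 30.5 ± 2.07 in vtc1 and 34.0 ± 4.52 in wild type, a difference of 0.73 between abi4-102 and wild type.

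Cell wall proteins numbered 4. EXLA1, an expansin-like protein of a family linked to wall loosening, read 78.4, 77.9 and 93.6 in abi4-102, 46.5, 44.6, 46.4 and 50.3 in vtc1, and 41.6, 42.4 and 47.2 in wild type. The vtc1 and wild type arrays of EXLA1 overlapped, and abi4-102 was 1.88-fold above wild type. TBL45, of the TRICHOME BIREFRINGENCE-LIKE family in which many proteins acetylate wall polysaccharides, read 126, 153 and 132 in abi4-102, 94.8, 95.5, 98.7 and 93.2 in vtc1, and 71.0, 76.8 and 85.0 in wild type. The 3 genotypes of TBL45 did not overlap, with vtc1 in the middle at 0.30 above wild type, just inside the window.

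TBL39, of the same family, averaged 50.8 ± 10.7 in abi4-102, 27.0 ± 0.563 in vtc1 and 30.2 ± 1.07 in wild type. EXO, EXORDIUM, a brassinosteroid-responsive protein of leaf growth, averaged 49.4 ± 9.74 in abi4-102, 35.5 ± 4.8 in vtc1 and 28.6 ± 3.01 in wild type. The separation of EXO rests on a lowest abi4-102 array of 43.3 against 42.3 in vtc1 replicate 3, and vtc1 lay 0.30 above wild type. EXLA1, TBL45 and EXO left the window of vtc1 under spike-in scaling, while TBL39 stayed in it but missed the threshold of 0.7 after array median subtraction.

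The transcription factors and signalling proteins were BZIP61, PUB25, BZIP53 and RR16. BZIP61, a basic leucine zipper factor, read 47.0, 42.6 and 48.2 in abi4-102, 27.7, 27.9, 25.4 and 26.5 in vtc1, and 25.1, 24.0 and 24.6 in wild type. Its vtc1 arrays lay just above the wild type arrays, and abi4-102 was 1.83-fold above wild type. PUB25 is a U-box ubiquitin ligase that, with PUB26, has been placed in immune and cold signalling. It read 20.5, 21.5 and 17.0 in abi4-102, 12.5, 13.3, 10.2 and 10.9 in vtc1, and 10.8, 10.5 and 10.03 in wild type. With wild type below the control signal, the level of PUB25 in abi4-102 is given as at least 1.13-fold that of wild type, with measured means of 19.7 and 10.5. The abi4-102 array of PUB25 at 17.0 also lay below its control signal and entered the bound as measured.

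BZIP53, a basic leucine zipper factor known from the control of proline dehydrogenase and of seed maturation genes, averaged 574 ± 61.7 in abi4-102, 336 ± 6.82 in vtc1 and 327 ± 11.7 in wild type. Its difference between abi4-102 and wild type was 0.81, and it was kept under each scaling and with the larger pseudocount. RR16, a type-A response regulator of the kind that feeds back on cytokinin signalling, averaged 51.1 ± 2.99 in abi4-102, 36.8 ± 1.4 in vtc1 and 30.4 ± 1.69 in wild type. In RR16 vtc1 lay 0.27 above wild type, and 0.51 above it under spike-in scaling. BZIP61 and PUB25 also left the window under that scaling.

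Both remaining sorted members lie close to the threshold. U2AF35B, the small subunit of a splicing factor that reads the end of introns, measured 162, 170.0 and 195 in abi4-102, 116, 129, 119 and 124 in vtc1, and 114, 113 and 92.6 in wild type. CYN, cyanase, which detoxifies cyanate, measured 604, 612 and 573 in abi4-102, 400.1, 438, 415 and 459.7 in vtc1, and 375, 371 and 353 in wild type. In both genes every vtc1 array lay between the abi4-102 and the wild type arrays. Their differences between abi4-102 and wild type were 0.72 and 0.70. Neither gene met the conditions after quantile normalization, under spike-in scaling or with the larger pseudocount, and CYN also failed after array median subtraction. Under spike-in scaling vtc1 lay 0.44 above wild type for U2AF35B and 0.46 above it for CYN.

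**Figure D3:**
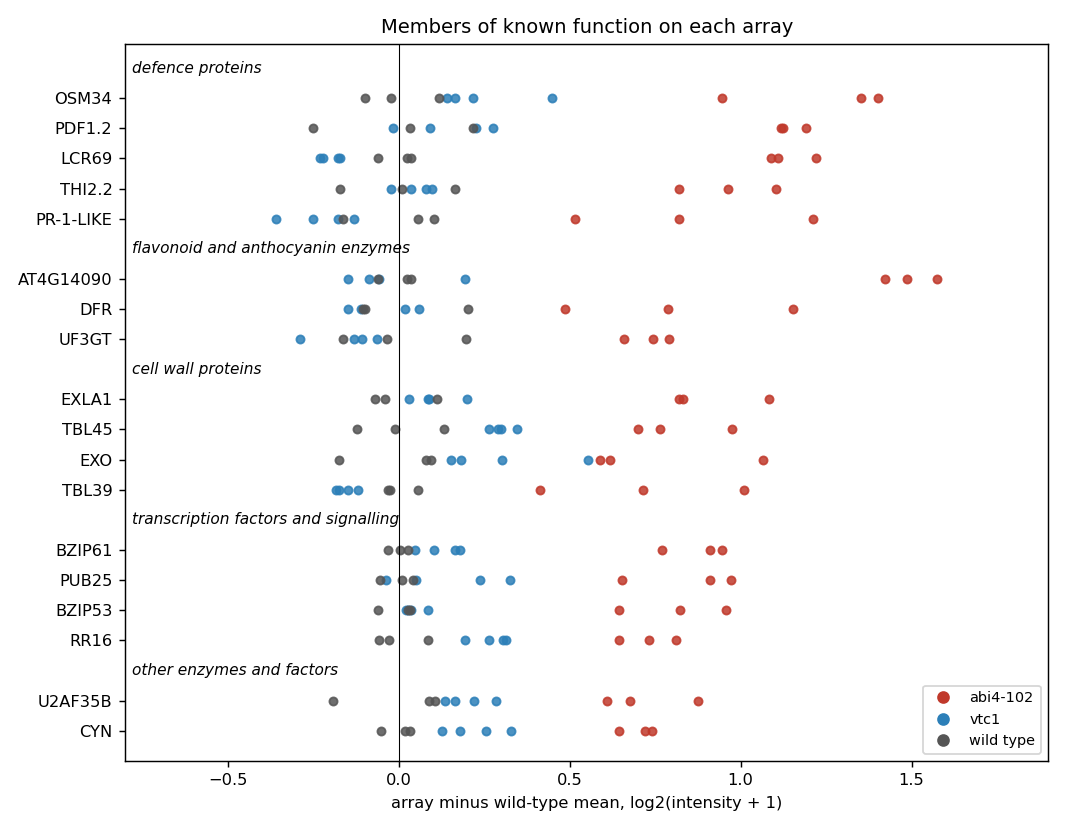
The 18 members sorted by function, shown by class, with each array's log2(intensity + 1) minus the wild type mean as a point, coloured by genotype (abi4-102, vtc1 and wild type). The abi4-102 points lie to the right of all others for each gene, with the narrowest gap for EXO, and in TBL45, RR16, U2AF35B and CYN, for example, the vtc1 points lie between those of the other genotypes.

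Of these 18 sorted members, 8 met the conditions under spike-in scaling: AT4G14090, DFR, UF3GT, LCR69, THI2.2, PR-1-LIKE, BZIP53 and TBL39. After quantile normalization 16 met them and after array median subtraction 16. With a pseudocount of 16 in place of 1, 8 did. AT4G14090, LCR69, THI2.2 and BZIP53 met the conditions under all 4 alternatives, as did 15 of the 60 single-gene members.

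The edges of the set were continuous with neighbouring genes. Just inside the threshold of 0.7 were CYN at 0.70, AT1G21830 at 0.71 and AT5G25170 at 0.71, and just outside were AT1G02470, AT5G61590 and SLY1, each at 0.68. At the upper edge of the vtc1 window TBL45, EXO and AT4G20030 lay inside at 0.30, 0.30 and 0.29, while AT1G05340, UBC28 and PDF1.2b lay outside at 0.30, 0.31 and 0.33. At the lower edge AT2G27830, PR-1-LIKE and LCR69 lay inside at -0.24, -0.23 and -0.20, and AT3G06070, AT5G19120 and AT3G07350 lay outside at -0.31, -0.44 and -0.90. The value of PR-1-LIKE rests on vtc1 arrays that were all below the control signal. A second probe set of AT1G21830 gave a difference of -0.16 between abi4-102 and wild type, in the direction opposite to its member probe set.

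Genes of the same pathways and families that are not members were set beside them, tested over all probe sets. Members of a list were chosen for being higher in abi4-102, so they are left out of these counts, an alternative chosen after seeing the data. In lists that hold members this takes away only genes that rose. The counts and medians that remain there lean the other way beside the shares over all probe sets. Over all probe sets 18.8% were called higher in abi4-102, 16% lower and the rest neither, with a median difference of -0.01, and no list was tested against those shares. In the list of flavonoid and anthocyanin genes 7 of 21 had a probe set of their own. Of the 4 that are not members, 2 were called higher in abi4-102 than in wild type, 1 lower and 1 neither, with a median difference of 0.28. UGT78D1, which glycosylates flavonols, averaged 105 ± 7.82 in abi4-102, 85.4 ± 11.2 in vtc1 and 69.1 ± 1.06 in wild type, and was called higher in abi4-102 (0.59 ± 0.09, adjusted p = 0.00013) and in vtc1 (0.29, adjusted p = 0.016). UGT78D2, a flavonoid and anthocyanidin glucosyltransferase, averaged 99.5 ± 4.64 in abi4-102, 70.6 ± 5.37 in vtc1 and 78.8 ± 6.09 in wild type, and was called higher in abi4-102 (0.33, adjusted p = 0.0029).

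CHIL, a chalcone isomerase-like protein of the early pathway, went the other way. It averaged 55.9 ± 2.77 in abi4-102, 40.8 ± 2.12 in vtc1 and 69.0 ± 7.69 in wild type, and was called lower in abi4-102 (-0.29, adjusted p = 0.0087) and in vtc1 (-0.74, adjusted p = 7.8e-07). The abi4-102 call of CHIL was lost under spike-in scaling (-0.26) and without wild type replicate 3 (-0.21). AT5MAT, an anthocyanin malonyltransferase, was below the control signal on all arrays of all 3 genotypes, so no difference is read from it.

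Of 13 defensins measured, 11 are not members. In abi4-102 2 of these were called higher, PDF1.4 and PDF1.2b, 1 was called lower and 8 were not called, and all 8 stayed below the control signal in both abi4-102 and wild type. PDF1.4 averaged 113 ± 5.28 in abi4-102, 52.3 ± 6.15 in vtc1 and 39.4 ± 5.33 in wild type (1.51, adjusted p = 1.3e-08), but stood outside the set because vtc1 lay 0.40 above wild type. PDF1.2b averaged 316 ± 18.8 in abi4-102, 207 ± 9.73 in vtc1 and 165 ± 14.2 in wild type (0.94, adjusted p = 9.5e-08), read by a probe set that may share sequence with PDF1.2. LCR68, named alongside LCR69, was lower: 542 ± 23.3 in abi4-102, 877 ± 29.6 in vtc1 and 872 ± 13.7 in wild type (-0.69, adjusted p = 3.9e-07).

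In the list of jasmonate and ethylene defence genes 4 of 18 were measured, and 3 of these are not members. PDF1.2b was called higher in abi4-102, THI2.1 lower and LCR67 neither. LCR67 was below the control signal in abi4-102 and wild type. THI2.1, the thionin paralogue of THI2.2, averaged 14.6 ± 0.648 in abi4-102, 11.7 ± 0.42 in vtc1 and 17.6 ± 0.995 in wild type. It was below the control signal on every abi4-102 and vtc1 array, so no size is given for the difference, and its call in abi4-102 was lost under spike-in scaling.

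Beside the members TBL45 and TBL39, 20 genes of the TRICHOME BIREFRINGENCE family were measured. In abi4-102 5 of them were called lower and 15 were not called, 6 of the 15 below the control signal in both abi4-102 and wild type, and the median difference was -0.05. TBL38 fell furthest, to 56.2 ± 2.21 in abi4-102 and 38.6 ± 1.61 in vtc1, against 115 ± 13.0 in wild type (abi4-102 minus wild type -1.01, adjusted p = 6.4e-08). The call of TBL15 among the lower ones was lost under spike-in scaling and without abi4-102 replicate 3, wild type replicate 2 or wild type replicate 3. Among the 17 expansins other than EXLA1, with a median difference of 0.05, 3 were called higher, 2 lower and 12 neither. Of these 12, 4 were below the control signal in both abi4-102 and wild type. EXPA4 was higher in abi4-102 by 0.35 (adjusted p = 0.00038) and EXPB1 was lower by a difference of -0.59 (adjusted p = 3.2e-05). The call of EXPA9 (0.30) was lost without abi4-102 replicate 2 or wild type replicate 1. That of EXPB3 (0.22) was lost under quantile normalization, under spike-in scaling and without abi4-102 replicate 1 or 3 or wild type replicate 1 or 2.

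Of 5 further basic leucine zipper genes named as such, 2 were called higher in abi4-102, BZIP60 and BZIP34, and 3 neither, with a median difference of 0.08. Of these 3, 1 was below the control signal in both abi4-102 and wild type. BZIP34, below the control signal on every wild type array, was at least 1.01-fold higher in abi4-102. BZIP60, a factor of the unfolded protein response, averaged 677 ± 29.6 in abi4-102, 763 ± 31.1 in vtc1 and 357 ± 20.9 in wild type, and was called higher in abi4-102 (0.92, adjusted p = 3.4e-08) and in vtc1 (adjusted p = 9.3e-10), at 2.14-fold the wild type level in vtc1. Among 8 plant U-box genes other than PUB25, with a median difference of 0.02, 3 were called higher, 1 lower and 4 neither. Of these 4, 2 were below the control signal in both abi4-102 and wild type. PUB26, the partner of PUB25, averaged 121 ± 7.23 in abi4-102, 92.5 ± 4.63 in vtc1 and 88.0 ± 13.0 in wild type (0.46, adjusted p = 0.001). The 5 measured response regulators other than RR16 differed by -0.16 to 0.12 between abi4-102 and wild type and did not pass the test, and 3 of them were below the control signal in both abi4-102 and wild type.

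**Figure D4:**
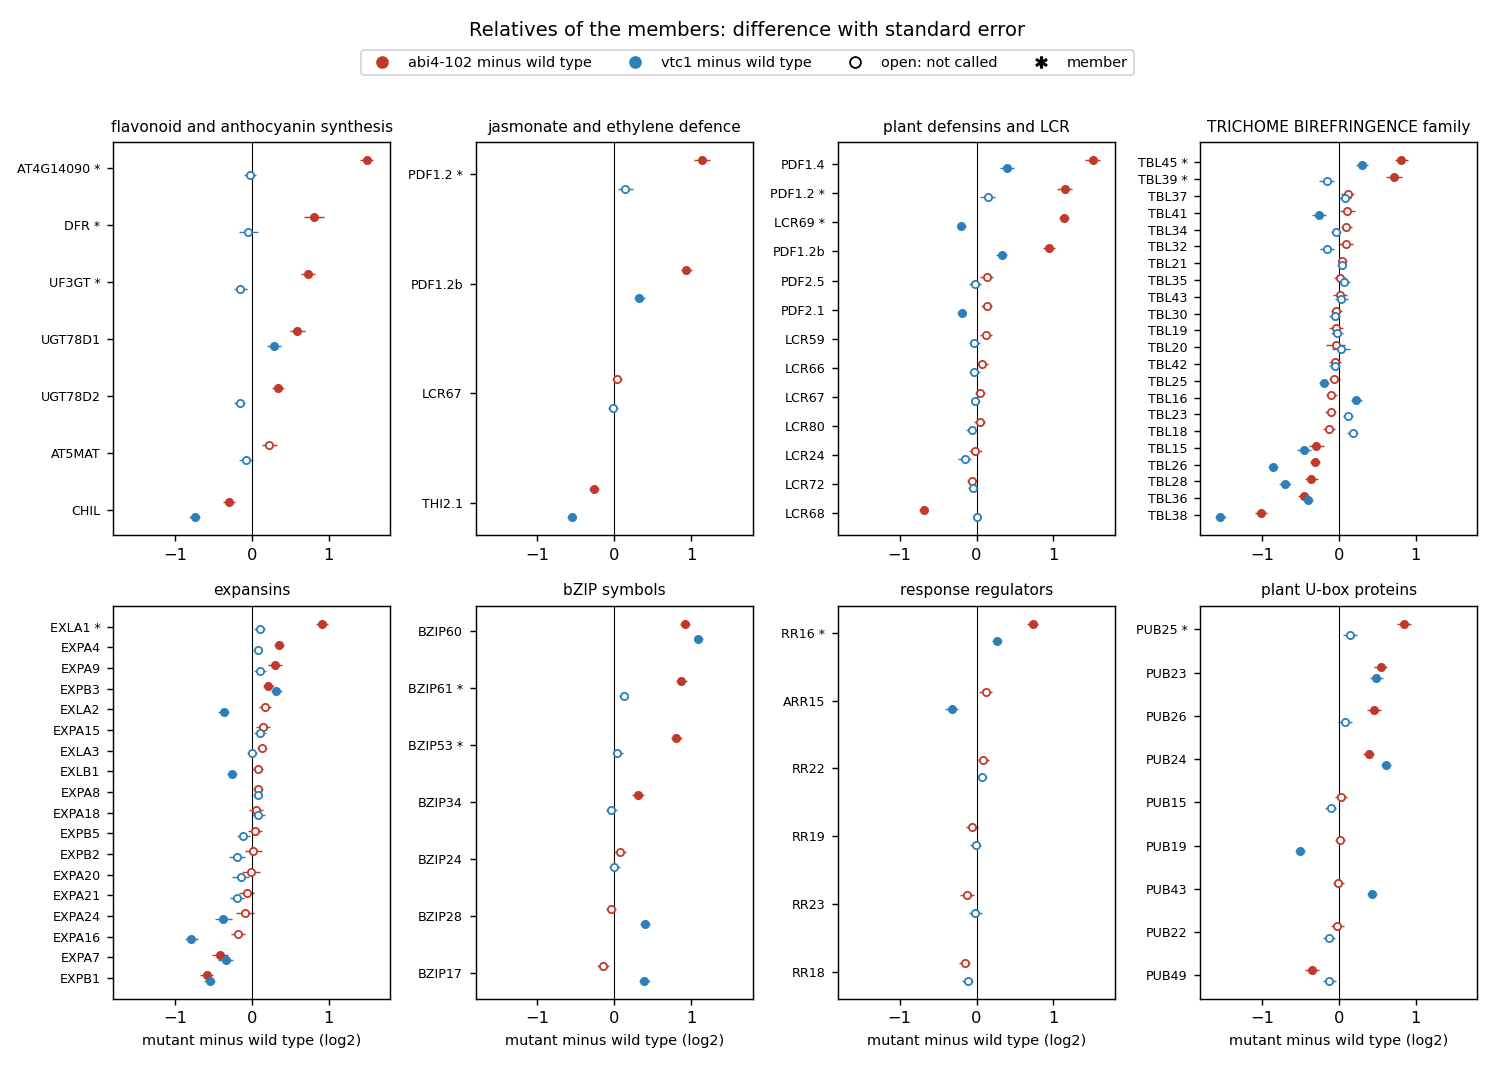
Differences from wild type in mean log2(intensity + 1), with standard errors, for genes of the pathway lists and symbol families, abi4-102 and vtc1 drawn apart, filled where called by limma, with members starred. PDF1.4 and PDF1.2b are high in abi4-102 and moderately raised in vtc1, while LCR68 and TBL38 are below wild type in abi4-102.

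Genes of hormone and sugar lists tied to ABI4 were also measured. None of the 14 genes measured in these lists is a member, and 0.453% of all probe sets met the conditions. The lists overlap, so their counts below are not of separate genes throughout. Of 28 abscisic acid genes 4 were measured, with a median difference of -0.15; in abi4-102 2 were not called and 2 were called lower, COR47 (-0.28, adjusted p = 0.0016) and LEA4-5 (-0.44, adjusted p = 0.0018), both proteins of dehydration tolerance. The COR47 call was lost under spike-in scaling (-0.24). Of 12 reported ABI4 targets only SBE2.2, a starch branching enzyme, had a probe set of its own, and it was lower in abi4-102: 349 ± 37.1, against 475 ± 20.9 in vtc1 and 493 ± 15.3 in wild type (-0.50, adjusted p = 9.1e-05). Of 22 starch and sucrose genes 6 were measured, with a median difference of -0.32, and 1 was called higher, 3 lower and 2 neither in abi4-102. The higher one was QQS, a regulator of starch content, at 472 ± 33.6 in abi4-102, 144 ± 7.13 in vtc1 and 45.98 ± 4.81 in wild type. Of 14 salicylic acid genes 4 were measured, with a median difference of 0.61, and 2 were called higher in abi4-102. Those 2, WRKY53 and GRX480, had differences of 2.21 and 1.04 in abi4-102 and of 2.36 and 1.05 in vtc1.

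Marker lists of other cell types were followed over the same arrays. Of 8 guard cell markers 2 were measured, and their summed intensity was 287 to 338 in abi4-102, 167 to 181 in vtc1 and 212 to 224 in wild type. AT1G22690 gave that pattern, higher in abi4-102 (0.66, adjusted p = 4.8e-06) and lower in vtc1 (-0.40), while the other marker was not called. The single phloem marker measured of 6, AT5G18600, read 1386 to 1515 in abi4-102, 885 to 969 in vtc1 and 1048 to 1088 in wild type (0.45, adjusted p = 4.2e-05). The trichome marker TRY was not called, 1 of 2 root markers was called lower in abi4-102, both pollen markers stayed at the control signal, and no flower or seed marker had a probe set of its own. The part of cell type in the member differences was not tested.

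The genes of the 60 single-gene members lay on all 5 nuclear chromosomes by their loci. Chromosome 2 held 16 of them, 26.7% against 16.3% of all probe sets with 1 gene, and chromosome 1 held 9, 15% against 25.5%. AT4G15690 and AT4G15700 are next to each other in gene order, and both were higher in abi4-102, by 0.84 and 0.93. DFR and U2AF35B have 1 gene between them, which was not measured. AT2G43590 and AT2G43620 have 4 between them, of which AT2G43600 and AT2G43610 were measured and differed by 0.01 each at the control signal, against 0.93 and 0.78 for the members. Between AT2G41730 and AT2G41800, 4 genes were measured, and AT2G41760 and AT2G41790 were called lower in abi4-102 (-0.32 and -0.31).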

How the data were processed

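Values were the deposited linear intensity per probe set, taken as the authors made them. The summary of probes and the scaling between arrays by the authors are not given in the sources used here. Per the labels, RNA came from whole rosettes and was labelled with biotin as cRNA. Intensities were turned to log2(intensity + 1), the 64 control probe sets were left out, and a linear model with 3 genotypes was fitted to 22746 probe sets with limma 3.58.1 (R 4.3.3). Benjamini-Hochberg adjustment ran over all of them, two-sided, with calls at an adjusted p under 0.05. Python 3.11.15, pandas 2.3.3 and matplotlib 3.10.9 were used for the rest. The fit was tested on simulated data.

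The highest Bacillus control probe set of an array was its level of control signal. A gene below it on every array of 1 genotype has only a bound there, computed from that level, and given as at least a fold. Arrays of the other genotype entered such a bound as measured, also where some of them lay below the level, so there the bound is less firm. Genes were named through the platform annotation and the TAIR10.1 gene table, with 13513 probe sets of 1 gene, 503 of several and 8730 of none. Every single-gene member could be named, with arrays given for the 12 largest and the 2 largest per class. From each list the called genes with the largest differences were named. Members, lists, families and classes were chosen with earlier results of these data known. Same-numbered replicates of different genotypes had deviations correlating at -0.05 to 0.10, so numbers were not taken to pair samples. Alternatives were a pseudocount of 16, quantile normalization, array median subtraction, spike-in scaling, a filter on dim probe sets, leaving out each replicate, and a replicate block. Promoter sequences were not used here.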

Additional observations from a re-analysis of the deposited data

Results flagged for a closer look

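In 3 of the 60 single-gene members 1 vtc1 array stood apart from the other vtc1 arrays, by a gap above Dixon's critical value for 4 arrays. Chance flags about 1 in 20 groups, and 3 of 60 is 5%. AT1G10585 read 6.79 in vtc1 replicate 4, against 6.27, 6.30 and 6.32 in the others, a gap of 0.902 of the range, and all these values lie below the control signal. AT1G03820 read 77.1 in vtc1 replicate 2, against 89.7, 90.3 and 91.1, a gap of 0.905. AT5G43870 read 52.3 in vtc1 replicate 3, against 55.8, 56.0 and 56.2, a gap of 0.906. All 3 deviations were smaller than the abi4-102 minus vtc1 difference of the gene. Groups of 3 arrays were not examined in this way.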

How the results depend on the processing

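The number of members, 99 as reported, was 58 with a pseudocount of 16 (51 of them shared), 47 with spike-in scaling (39 shared), 24 with a threshold of 1 on the abi4-102 minus wild type difference, and 64 with a vtc1 window of 0.2. It was 102 with array median subtraction, 90 without dim probe sets, 82 with quantile normalization and 88 to 108 when 1 replicate was left out. The median member difference of 0.84 was 0.71 with a pseudocount of 16. The 5 flavonoid genes called higher were 2 without the list genes that are members, an alternative chosen after seeing the data. Spike-in scaling raised the vtc1 minus wild type difference by a median of 0.24 over all probe sets and the abi4-102 minus wild type difference by 0.03. Of the 7928 calls between abi4-102 and wild type, the share that was higher in abi4-102 was 54.0%, against 48.4% with quantile normalization and 62.1% with spike-in scaling. With the replicate block 7611 probe sets were called. No difference between abi4-102 and wild type of the 60 single-gene members changed sign under these alternatives, and the lowest was 0.37 with a pseudocount of 16. Every abi4-102 array of a member lies above every wild type array by the conditions. Leaving out a replicate or raising the pseudocount therefore could not change the sign, and the kept sign is no support for the members. Low signal limits members near the control signal, and a larger pseudocount shrinks them by construction.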
